A study of Drosophila melanogaster with 2 samples.

Results

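The 10 genes described here, EcR, usp, Hr4, Hr3, Eip75B, Eip74EF, Eip93F, br, ftz-f1 and E23, belong to the response to the steroid hormone ecdysone or encode nuclear receptors of that response. They were chosen by name, with earlier results of these data known, from 13968 protein-coding genes on the chromosome arms of Drosophila melanogaster. All 10 were found in the annotation. Binding of CG32772, fused to the fluorescent tag eGFP, was mapped at them by chromatin immunoprecipitation and sequencing (ChIP-seq) with an anti-GFP antibody. Both libraries are biological replicates from whole transgenic embryos of 0 to 24 h, a range that spans embryonic development, so signals from all tissues and stages were mixed. The line carries an insertion aimed at CG32772, both libraries share it, and neither an untagged line nor another condition was analysed here. The authors deposited peak lists on the dm6 assembly. The conservative list called from both libraries jointly, with 4699 peaks on the arms, is the joint list used below, and the lists of the separate libraries, with 3012 peaks for replicate 1 and 3537 for replicate 2, stand beside it. Read counts were not analysed here, and sequencing depth is therefore unknown.

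Ecdysone acts through a dimer of the ecdysone receptor EcR and its partner ultraspiracle (usp), the fly orthologue of the vertebrate retinoid X receptors. The hormone-bound dimer switches on early genes such as the transcription factor genes Eip75B, Eip74EF and br, and the products of these control later genes in turn. The orphan receptors Hr3 and Hr4 act in the middle of this cascade, ftz-f1 follows as the hormone level falls, and Eip93F works at the later steps of metamorphosis. E23 encodes a membrane transporter of the ABC family that is induced by ecdysone. The cascade is best known from the larva and pupa, and a pulse of ecdysteroids in the embryo also precedes its later morphogenesis.

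Summits, the positions of highest signal in the peaks, were counted within 500 bp of every annotated start site of transcription (TSS) of each gene. In the joint list 3 of the 10 genes, usp, Eip75B and E23, had such a promoter summit, where 17.1% of all protein-coding genes did. The same 3 genes had one in replicate 1, where the share of all genes was 12.9%, and in replicate 2, where it was 14.1%. With summits counted only within 200 bp of a start site the number was 2, because the E23 summit lay 236 bp upstream of its start. Of the 36 separate start sites of the 10 genes, 5 had a summit within 500 bp (13.9%), where 3027 of the 19630 start sites of all genes did (15.4%).

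Most of the binding lay away from the promoters. In the gene bodies and the 5 kb either side, called the locus below, 9 of the 10 genes had at least 1 site in the joint list, where 45.3% of all genes did. Replicate 1 also had sites at 9 of them, against 36.1% of all genes, and replicate 2 at all 10, against 38.9%. These genes are long (7 of them are among the 313 genes of at least 50 kb), so each was set beside the 200 protein-coding genes nearest to it in length. Of those, 62.0% to 74.5% had a joint-list site for every member but usp, for which 42.0% did. The 10 loci held 57 sites over 684 kb, or 0.0833 per kb, where the like-length genes held 22.1 in sum, a ratio of 2.58. That ratio was 2.27 in replicate 1 (32 sites) and 2.81 in replicate 2 (44 sites). Because the genes were chosen with earlier results of these data known, the set as a whole was given no test. All protein-coding loci together had 0.0464 sites per kb. The median percentile of the 10 genes among their like-length genes, by sites per kb, was 91, where the median over all genes was 37.2. Most genes had no site and share a low tied percentile, so 37.2 is no midpoint for long genes. 5 of the 10 stood at or above the 90th percentile, as did 9.64% of all genes. In replicate 1 alone the median percentile was 77.5 and 3 of the 10 stood there, as did 9.06% of all genes. In replicate 2 alone the median was 84.2 and 4 stood there, as did 10.1% of all genes.

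**Figure D1:**
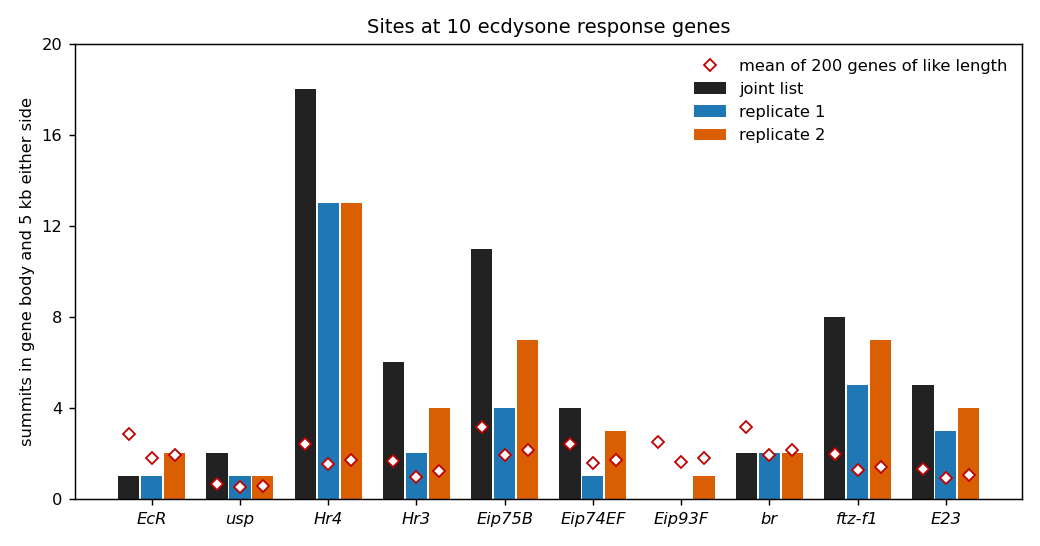
Number of summits in the gene body and 5 kb either side (vertical axis) for each of the 10 genes (horizontal axis), in the joint list (black), replicate 1 (blue) and replicate 2 (orange), with diamonds for the mean of the 200 genes of like length in the same list. Hr4 had 18, 13 and 13 sites against means of 2.41, 1.54 and 1.71, and Eip93F had 0, 0 and 1.

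The genes differed widely among themselves. Hr4 had 18 sites, Eip75B 11, ftz-f1 8, Hr3 6, E23 5, Eip74EF 4, usp and br 2 each, EcR 1 and Eip93F 0. Each count was tested against the upper tail of a negative binomial distribution with the mean and variance of the like-length genes, one-sided, with Benjamini-Hochberg adjustment over all 13968 genes. None of the 10 passed at an adjusted p under 0.05, and CG6927 alone passed among all genes (0.00716%). CG6927 was scored with a Poisson distribution, which was used wherever the variance was not above the mean. Unadjusted p-values under 0.05 were reached by 5 of the 10, Hr4, ftz-f1, E23, Hr3 and Eip75B, where 3.27% of all genes reached them. An adjusted p above that threshold does not show that a count was like those of other genes. On simulated counts in which many long genes were raised at once, the adjusted test called none of them. Genes raised together enter each other's like-length sets, which widens the spread the test uses. How well the test finds a single high gene among mostly unraised ones was not tested. With a Poisson distribution for every gene, which allows less spread between genes, 1 of the 10 passed, Hr4 with an adjusted p of 4.45e-07, as did 0.136% of all genes. The 5 unadjusted calls fell to 1 in replicate 1, Hr4, where 367 of all 13968 genes had one. In replicate 2 they fell to 2, Hr4 and ftz-f1, where 402 of all genes had one.

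**Figure D2:**
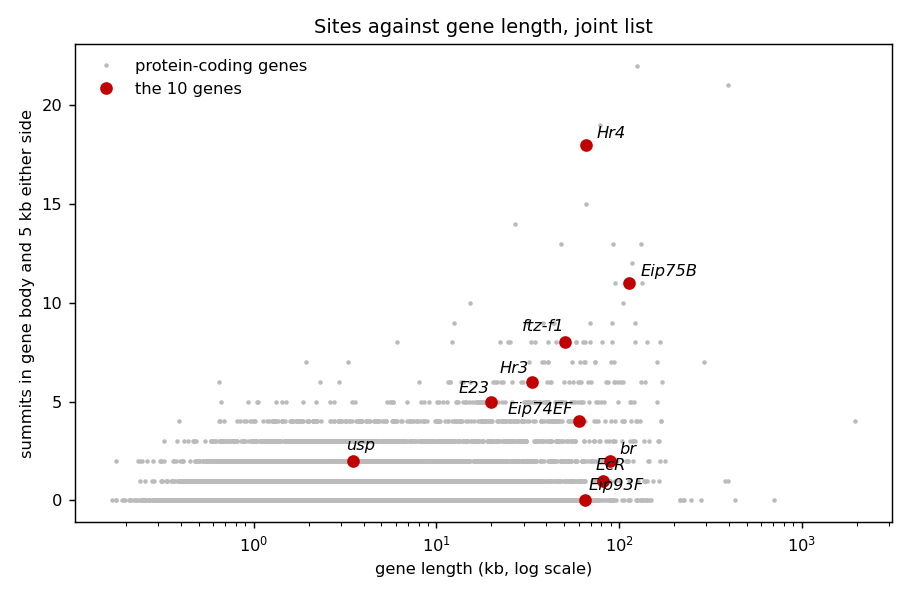
Summits in the gene body and 5 kb either side in the joint list (vertical axis) against gene length in kb (horizontal axis, log scale) for all protein-coding genes (grey) and the 10 genes (red, named). Hr4 with 18 sites, Eip75B with 11 and ftz-f1 with 8 lie in the upper part of genes of their length, whereas EcR, br and Eip93F, which are also long, have 1, 2 and 0.

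The receptor subunits come first in the pathway, and EcR had 1 joint-list site and usp had 2, over loci of unlike length. EcR (FBgn0000546, 2R:6087873-6169087, minus strand) encodes the subunit that binds the hormone. Its locus of 91.2 kb held a single joint-list site, where like-length genes had a mean of 2.85 ± 3.24 (SD, n = 200), and stood at the 31.5th percentile. It was at the 44.5th in the list of replicate 1 and at the 61.5th in that of replicate 2, where it had a second site. The peak, 2R:6151217-6151358 in an intron, lay 5824 bp downstream of the start shared by the EcR-RD and EcR-RE transcripts, and 1371 bp downstream of the start of tRNA:Asn-GTT-1-1, one of the tRNA genes nested in EcR. Its signal, the authors' value per peak, was 302 in the joint list (rank 557 of 4699), 154.0 in replicate 1 and 154.4 in replicate 2. The signals of the libraries were thus alike at this peak. None of the 4 EcR start sites had a summit within 500 bp in the joint list or an own list. A call of signal 50.2 at the EcR-RD and EcR-RE start was in the ranked list of all calls of replicate 2, at rank 3375 of 77048. Replicate 2 also had an intron site at 2R:6120260-6120579 with a signal of 46.9, which replicate 1 held at a signal of 20.6 and rank 26328 of 113626.

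The usp gene (FBgn0003964, X:2038798-2042311, minus strand) is short at 3514 bp, and its 2 summits both lay at the promoter of the usp-RA transcript. The stronger peak, X:2041275-2041624, had its summit 138 bp upstream of that start and a signal of 164 (rank 1482). The weaker, with a signal of 9.43, had its summit 199 bp away, and each own list held a single peak there, with signals of 90.8 in replicate 1 and 72.6 in replicate 2. The start of CG4313, a gene read in the opposite direction, lay 418 bp from the stronger summit and 219 bp from the weaker. The summits therefore lay between the 2 starts and cannot be given to one of them alone. By sites per kb usp was at the 89.5th percentile, and at the 71.5th once summits within 1 kb were counted once.

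Hr4 stood highest of the 10. It encodes an orphan nuclear receptor that represses early ecdysone genes and limits ecdysone production in the prothoracic gland. The gene (FBgn0264562, X:1941940-2007956, plus strand) had 18 sites in the joint list and 13 in each own list, or 0.237 per kb, where like-length genes had a mean of 2.41 ± 2.74 sites (SD, n = 200). Only 1 of those 200 had as many, and over all protein-coding genes Hr4 came 4th by number of sites, after CG1677 with 22, kirre with 21 and sbb with 19. Its negative binomial p was 0.00132 (one-sided, unadjusted; 17th of all 13968 genes; adjusted p = 1). The gene lies on X, where loci had 0.0516 sites per kb against 0.0422 to 0.0488 on the large autosome arms. Set only against the 50 genes nearest in length on X, it was again at the 100th percentile.

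Of the 18 Hr4 sites, 13 were in introns, 1 in an untranslated exon and 4 in the flanks, and 14 were in both own lists. They spread over 71.6 kb, with a median gap of 2385 bp and with 4 gaps of 1 kb or less. Neither Hr4 start had a summit within 500 bp. The nearest summit to the first start, that of 7 transcripts, was 1775 bp upstream, at X:1939990-1940339 with a signal of 205. That summit lay 125 bp upstream of the start of CG3857. It was also within 500 bp of the start of CG3587, read in the opposite direction, and cannot be given to one of them alone. The flank sites beyond the other end lay 404 and 605 bp upstream of PIG-K (signals 111 and 25.8) and 562 bp upstream of east (signal 156). With only those sites counted that are nearer to a start of Hr4 than to any other protein-coding start, 13 remained.

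The strongest Hr4 site was at X:1963823-1964042 in an intron, 21996 bp downstream of the first start, with a signal of 518 (rank 203), and 241 and 271 in the libraries. The next were at X:1947626-1947845 with a signal of 436 (182 and 247 in replicates 1 and 2) and at X:1951804-1952028 with 389 (186 and 207). A site nearer the second start, X:1984264-1984378, had 268 (132 and 141), at 7971 bp upstream of the Hr4-RE and Hr4-RF start. All 4 were called in both libraries, with the higher value in replicate 2 in each case. The remaining sites had signals between 14.9 and 205.

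The DNA at the Hr4 summits is shown because these sites carry the highest count. Each line gives 101 bp of the plus strand of dm6 centred on a summit, from the RefSeq copy of the assembly. Capitals mark every match, on either strand, to a set of 10 short motifs, which are GAGAG (the core bound by GAGA factor), AGGTCA (the half-site of nuclear receptors), CAAGGTCA (the FTZ-F1 form of that half-site), CAGGTA (a core bound by Zelda), TATCGATA (the DRE motif), CGATA (a core bound by BEAF-32), CCGGAA (the ETS core), CACGTG and CAGCTG (E-boxes) and runs of AAAAAA. A match is a description of the sequence and no evidence of a bound factor.
Hr4 strongest intron site, chrX:1963886-1963986: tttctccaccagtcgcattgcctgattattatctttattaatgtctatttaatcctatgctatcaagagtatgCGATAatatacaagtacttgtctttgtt
Hr4 next strongest intron site, chrX:1947698-1947798: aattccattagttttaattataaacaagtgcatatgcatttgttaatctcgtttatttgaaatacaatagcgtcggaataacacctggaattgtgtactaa
Hr4 site next in signal, chrX:1951857-1951957: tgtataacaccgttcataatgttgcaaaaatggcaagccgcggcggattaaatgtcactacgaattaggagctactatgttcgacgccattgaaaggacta
Hr4 GC-rich intron site, chrX:1953081-1953181: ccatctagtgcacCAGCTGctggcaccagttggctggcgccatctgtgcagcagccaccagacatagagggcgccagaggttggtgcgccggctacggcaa
Hr4 site with the most motif matches, chrX:1970935-1971035: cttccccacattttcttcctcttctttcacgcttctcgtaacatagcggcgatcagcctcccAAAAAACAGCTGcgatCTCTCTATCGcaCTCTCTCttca

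The 3 strongest of these windows held a CGATA match in 1 and no other match. Their GC content was 31.7%, 28.7% and 42.6%, whereas the weaker seventh site along the gene (signal 204) had 64.4% GC and a CAGCTG match. The weaker eleventh site (signal 106) held 4 of the motifs side by side, with a run of A first, then the CAGCTG match, and then GAGAG and CGATA matches that adjoin each other. GC content across all 18 Hr4 windows ranged from 19.8% to 64.4% (median 43.1%).

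**Figure D3:**
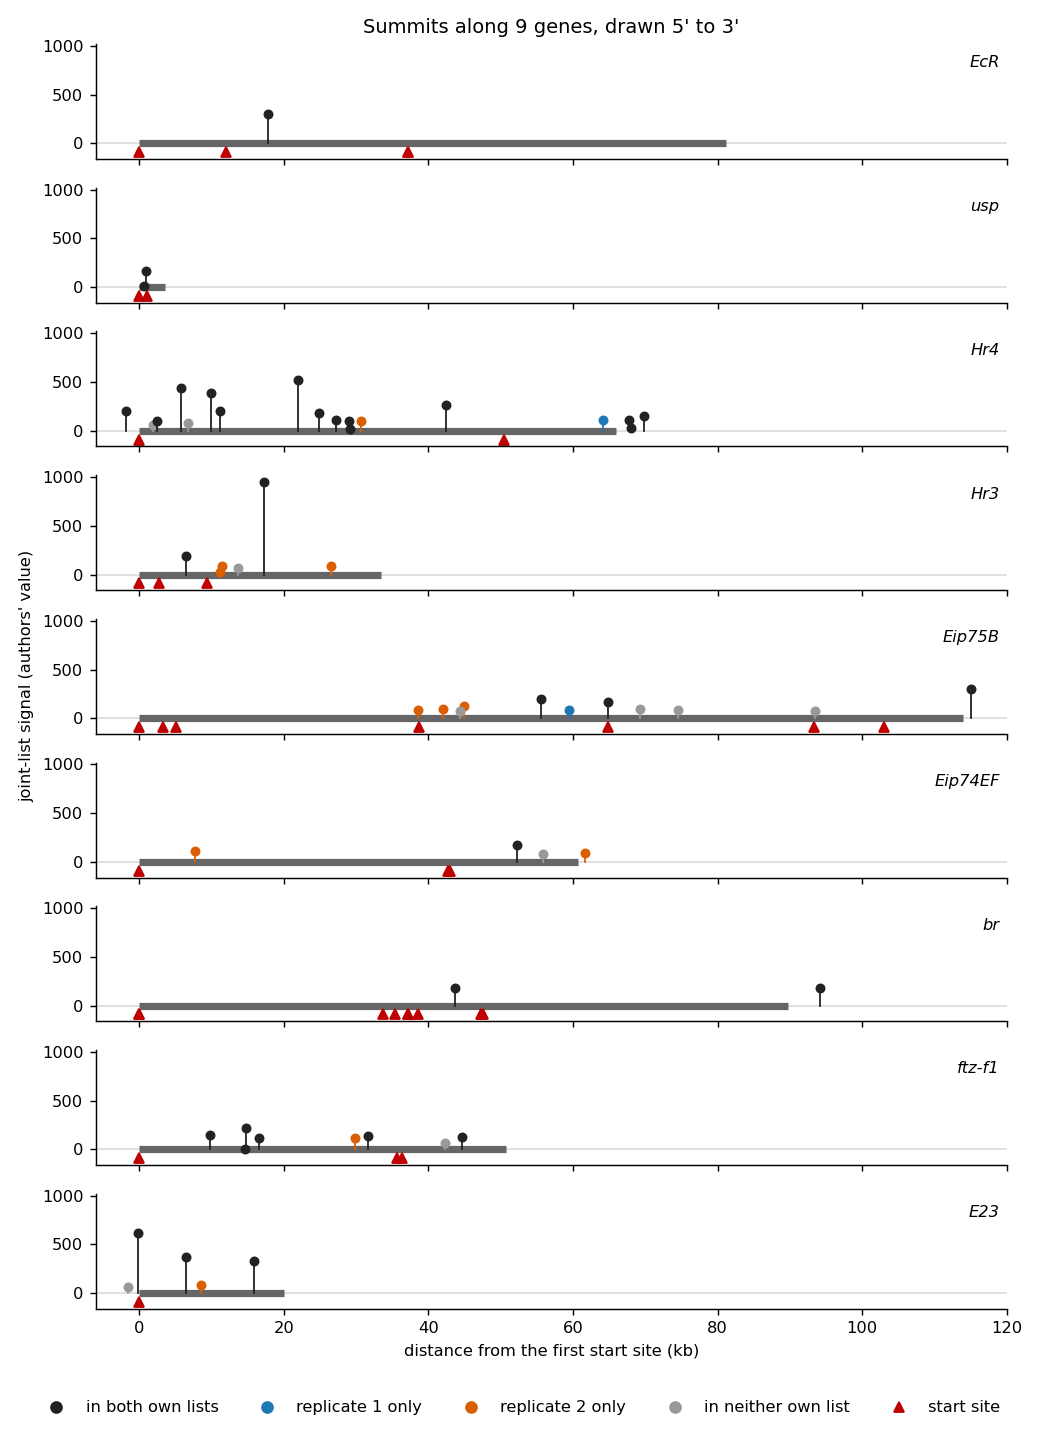
Joint-list summits along the 9 genes with a site, drawn in the direction of transcription, with distance from the first start site in kb (horizontal axis) and the authors' signal (vertical axis). Bars are gene bodies, triangles are start sites, and point colours tell in which own lists the peak was found. The tall peaks of Hr4, Hr3 and EcR stand away from the triangles, and the tallest of E23 stands at its only start.

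Hr3 held the strongest single site of the 10 genes. It encodes an orphan receptor that activates ftz-f1 and dampens early genes. The gene (FBgn0000448, 2R:10203995-10237348, minus strand) had 6 joint-list sites, 2 in replicate 1 and 4 in replicate 2, with 1.68 ± 1.89 in like-length genes (SD, n = 200) and a percentile of 96.5. The other joint list held 3 of its sites and put it at the 78.5th percentile. Its unadjusted one-sided negative binomial p was 0.0474 (adjusted p = 1). The strong peak, 2R:10219923-10220224, was in an intron 7884 bp downstream of the start of Hr3-RA, Hr3-RF and Hr3-RH. Its signal was 946 (rank 61 of 4699), with 427 in replicate 1 (rank 71) and 492 in replicate 2 (rank 61). CG46321, which shares that start site with Hr3, is at the same distance. The next site, 2905 bp upstream of the same start at 2R:10230687-10231036, had 191 (98.1 and 87.5). The other 4 had signals of 30.5 to 86.7, and none of them was in the list of replicate 1. None of the 3 Hr3 start sites had a summit within 500 bp.

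Eip75B encodes receptors of the E75 group, which bind heme and can hold back Hr3, from several start sites. The gene (FBgn0000568, 3L:17950953-18064696, minus strand) is the longest of the 10 at 114 kb and had 11 joint-list sites, 4 in replicate 1 and 7 in replicate 2. Like-length genes had a mean of 3.15 ± 3.65 (SD, n = 200), and its percentile was 92.5, with an unadjusted one-sided negative binomial p of 0.0491 (adjusted p = 1). In the own lists it was at the 79th percentile (replicate 1) and the 89.5th (replicate 2). Over all genes it came 11th by number of joint-list sites. All 11 were nearer to a start of Eip75B than to that of any other protein-coding gene.

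It was the only one of the 10 genes with summits at several of its starts, 3 of 7. The summit at the Eip75B-RC start lay 64 bp downstream, at 3L:17999582-17999931, with a signal of 168 (83.3 and 72.0 in replicates 1 and 2). The summit 100 bp upstream of Eip75B-RG had 81.5, and was in the list of replicate 2 (58.9) but not of replicate 1. The summit 259 bp downstream of Eip75B-RA had 75.4 and was in neither own list. So 1 of these 3 start sites was called in both libraries. The strongest Eip75B site lay beyond the 3' end, at 3L:17949244-17949367, with a signal of 297 (131 and 155), and 1595 bp upstream of lncRNA:CR45393. The strongest intron site, 3L:18009147-18009255, had 199 (93.4 and 94.6), and the remaining signals were between 71.3 and 125. Of the 11, 3 were in both own lists and 4 in neither.

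Windows of 101 bp at 3 of the Eip75B summits, printed as for Hr4, show the strongest site, the strongest intron site and the summit upstream of the RG start. The windows at the other starts overlap annotated exons and are not shown.
Eip75B flank site, chr3L:17949245-17949345: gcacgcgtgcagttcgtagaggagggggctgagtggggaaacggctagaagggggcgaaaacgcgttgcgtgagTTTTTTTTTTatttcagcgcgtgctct
Eip75B strongest intron site, chr3L:18009152-18009252: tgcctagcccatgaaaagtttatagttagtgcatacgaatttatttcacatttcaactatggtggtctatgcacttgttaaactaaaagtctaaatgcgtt
Eip75B promoter site of the RG transcript, chr3L:18026082-18026182: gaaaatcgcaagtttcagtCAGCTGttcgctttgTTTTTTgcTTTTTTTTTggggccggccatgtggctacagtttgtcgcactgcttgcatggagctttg

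The flank site was GC-rich at 55.4%, with a run of T, and the intron site was at 33.7% GC with no match. The RG window had runs of T and a CAGCTG match. Over the 11 Eip75B windows GC content was between 28.7% and 58.4% (median 46.5%).

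E23, the transporter gene, combined a strong promoter site with strong intron sites. The gene (FBgn0020445, 2L:3334875-3354829, minus strand) had 5 joint-list sites over a locus of 30 kb, 3 in replicate 1 and 4 in replicate 2, where like-length genes had a mean of 1.31 ± 1.42 (SD, n = 200). It stood at the 97th percentile, with an unadjusted one-sided negative binomial p of 0.0343 (adjusted p = 1). The promoter peak, 2L:3354944-3355203, had its summit 236 bp upstream of the only annotated start and a signal of 614 (rank 146), with 301 in replicate 1 and 311 in replicate 2. The intron peak at 2L:3348201-3348410, 6513 bp into the gene, had 369 (146 and 231). That at 2L:3338928-3339110, 15833 bp into the gene, had 328 (81.8 and 242). At this last peak the signal of replicate 2 was 2.95 times that of replicate 1, the widest gap among the sites of the 10 genes that both libraries called. The remaining E23 sites, with 82.1 and 65.7, were in the list of replicate 2 alone and in neither.
E23 promoter site, chr2L:3355015-3355115: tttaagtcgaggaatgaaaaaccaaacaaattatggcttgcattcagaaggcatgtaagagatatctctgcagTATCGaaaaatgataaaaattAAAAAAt
E23 intron site nearer the start, chr2L:3348266-3348366: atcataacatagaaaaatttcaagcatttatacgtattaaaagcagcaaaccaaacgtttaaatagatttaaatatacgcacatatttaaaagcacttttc
E23 intron site farther from the start, chr2L:3338946-3339046: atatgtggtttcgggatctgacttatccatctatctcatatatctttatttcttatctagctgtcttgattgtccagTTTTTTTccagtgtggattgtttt

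These windows, again 101 bp of the plus strand around each summit with motif matches in capitals, are those of the 3 strong E23 sites. They were all AT-rich, with 29.7%, 24.8% and 33.7% GC, as were all 5 E23 windows (24.8% to 36.6%). The promoter window held a CGATA match and a run of A, and the stronger intron window held no match.

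The ftz-f1 gene (FBgn0001078, 3L:18750607-18801309, minus strand) encodes an orphan receptor that makes tissues competent to respond to the next hormone pulse, and in the embryo a maternal form acts with Fushi tarazu in segmentation. It had 8 sites, all in introns, with 5 in replicate 1 and 7 in replicate 2. Like-length genes had a mean of 1.96 ± 2.19 (SD, n = 200), the percentile was 98, and the unadjusted one-sided negative binomial p was 0.0278 (adjusted p = 1). The nearest summit to any of its 3 starts was 3828 bp upstream of ftz-f1-RC and ftz-f1-RD. The strongest site, 3L:18786455-18786564, lay 14818 bp downstream of ftz-f1-RB with a signal of 215 (90.1 and 118), and a summit 201 bp from it had a signal of 5.15. The site at 3L:18769397-18769746 had 135 and was the one, among the sites in both own lists, where replicate 1 most exceeded replicate 2 (93.7 against 49.0, a ratio of replicate 2 to replicate 1 of 0.524). No ftz-f1 site had a signal above 215, so its sites were numerous but of middle rank (981 at best).

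Eip74EF encodes ETS-domain factors of the early puffs. The gene (FBgn0000567, 3L:17558672-17619325, minus strand) had 4 joint-list sites, 1 in replicate 1 and 3 in replicate 2, against a mean of 2.41 ± 2.78 in like-length genes (SD, n = 200), and stood at the 77th percentile. It was at the 47th in replicate 1 and the 79th in replicate 2. Its strongest site, 3L:17566832-17567181, was in an intron 9313 bp downstream of the Eip74EF-RD start, with a signal of 174 (53.9 and 112), and was the only one in both own lists. A flank site of signal 91.7 lay 35 bp downstream of a start of CycT, and 1 of the 4 sites was nearer to an Eip74EF start than to another protein-coding start. No Eip74EF start had a summit within 500 bp.

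Windows of the strongest ftz-f1 and Eip74EF sites, of the ftz-f1 site with the higher signal in replicate 1, and of the other Eip74EF site with a CAGGTA match are printed in the same way.
ftz-f1 strongest site, chr3L:18786441-18786541: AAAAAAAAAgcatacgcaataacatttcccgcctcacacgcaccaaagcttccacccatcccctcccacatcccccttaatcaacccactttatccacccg
ftz-f1 site stronger in replicate 1, chr3L:18769522-18769622: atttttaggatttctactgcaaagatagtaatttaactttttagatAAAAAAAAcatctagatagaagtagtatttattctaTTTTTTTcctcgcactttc
Eip74EF strongest site, chr3L:17566957-17567057: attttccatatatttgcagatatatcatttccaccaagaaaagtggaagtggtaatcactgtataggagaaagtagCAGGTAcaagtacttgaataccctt
Eip74EF neighbouring site, chr3L:17563380-17563480: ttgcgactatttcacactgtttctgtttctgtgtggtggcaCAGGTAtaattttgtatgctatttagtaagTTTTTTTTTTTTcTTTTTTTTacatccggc

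Both CAGGTA matches among the sites of the 10 genes were in these Eip74EF windows, 3577 bp apart. A run of 6 or more A or T was in 7 of the 8 ftz-f1 windows.

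The remaining genes had few sites or none. The br gene (FBgn0283451, X:1575132-1664869, plus strand) encodes the Broad zinc finger proteins, which specify the pupal stage. It had 2 sites in each of the 3 lists, where like-length genes had a mean of 3.17 ± 3.68 in the joint list (SD, n = 200), and a percentile of 46.5. Its intron site, X:1618654-1619003 with a signal of 178 (94.7 and 85.0), lay 674 bp upstream of a start of Mur2B, a gene that overlaps br. The flank site, X:1669202-1669551 with 177 (96.8 and 83.1), lay 80 bp upstream of CG3740. It was also within 500 bp of the start of hfw, read in the opposite direction. Both sites were called in both libraries, neither was nearest to a br start, and none of the 9 br starts had a summit within 500 bp. Eip93F (FBgn0264490, 3R:21949114-22014539, plus strand), a factor needed for the death of larval salivary glands and for adult differentiation, had no joint-list site where like-length genes had a mean of 2.52 ± 2.95 (SD, n = 200). Replicate 2 had a single site in its flank, 3R:22019078-22019397 with a signal of 81.2, over the starts of Idh3b, and replicate 1 had no call of any strength there. With that site its percentile was 43.5 in replicate 2, against 13.8 in the joint list.

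By position relative to their own gene, 41 of the 57 sites were in introns, 6 at a promoter, 8 in the flanks, 2 in untranslated exons and 0 in coding exons. Classed over all protein-coding genes, with promoters first, 10 of the 57 (17.5%) were within 500 bp of a start and 42 (73.7%) were in introns. In the whole joint list, classed the same way, 40.2% were at promoters and 38.6% in introns. The 10 genes are long, and how much of this difference goes with gene length was not tested. Of the intron sites 32 lay 5 kb or more from the nearest start of their gene. Of the 57 sites, 42 were at least as near to a start of their own gene as to any other protein-coding start. Among them were 5 Hr3 sites, which were equally near to CG46321 through the start it shares with Hr3. Their signals ran from 5.15 to 946 with a median of 113, where the list median was 115.4, and 28 of the 57 were above that list median. Sites among the 500 strongest of the list numbered 7, and belonged to Hr3, Hr4 and E23. A signal under 20 was found at 3 sites, in usp, Hr4 and ftz-f1, and each was a summit about 200 bp from a stronger one.

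The libraries were compared at the peaks that both called. Of the 57 sites, 34 (59.6%) overlapped a peak in both own lists, 2 in replicate 1 only, 11 in replicate 2 only and 10 in neither, where 50.9% of the whole joint list was in both. In the ranked lists of all calls, 55 of the 57 had a call in both libraries. The joint list was called from both libraries, and the share of all its peaks with such calls was not counted. The 55 is therefore no measure of agreement at these genes. The 34 sites fell in 30 distinct pairs of peaks, because neighbouring summits shared a peak. Over the 30 pairs, signals in the libraries had a Spearman rho of 0.717, given as a description, since sites of 1 gene share their libraries. The ratio of replicate 2 to replicate 1 ran from 0.524 to 2.95 with a median of 1.12, and replicate 2 was higher at 21 of the 30. How the authors scaled the signal is not stated, so this difference cannot be told apart from one of scale.

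**Figure D4:**
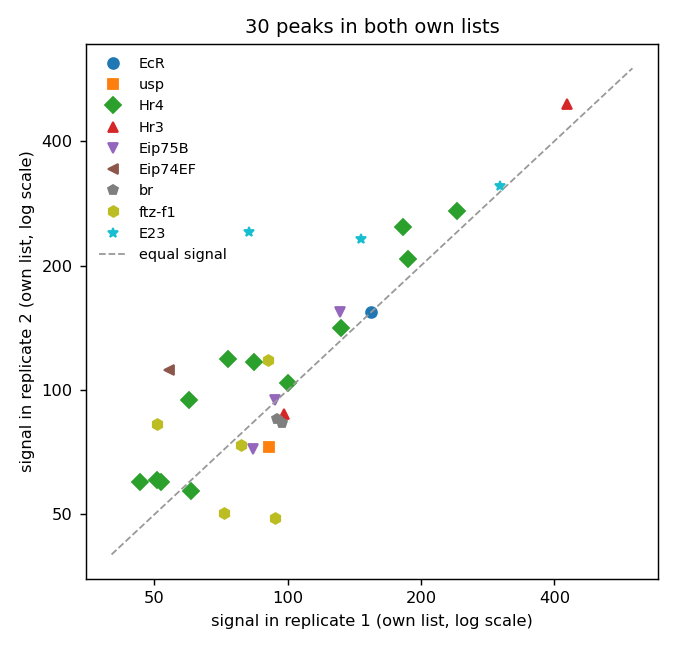
Signal of replicate 2 against replicate 1 at the 30 peak pairs of the 10 genes that both own lists hold, on log axes in the authors' units, with a symbol for each gene and a dashed line at equal signal. Points lie on both sides of the line, 21 of 30 above it. The E23 intron site with a ratio of 2.95 lies farthest above the line, and the ftz-f1 site with 0.524 lies farthest below it.

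At the 31 start sites without a joint-list summit, the ranked lists of all calls held peaks, most of them of low rank. In replicate 1, 23 of the 31 had a call of any strength within 500 bp, and the best was at ftz-f1-RC and ftz-f1-RD, at rank 8134 of 113626. In replicate 2, 19 had one, and the best was at EcR-RD and EcR-RE, at rank 3375 of 77048. That call had a signal of 50.2, and the thresholded list of replicate 2 did not hold it. The thresholded lists of these libraries held 3012 and 3537 peaks. The ranked lists are far longer, and the share of all start sites with a call in them was not counted. The counts of 23 and 19 are therefore not read as binding at these starts. The 2 Hr4 starts, which lie in the gene with the highest count, ranked at best 40584 in replicate 1 and 18935 in replicate 2.

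Matches to the motifs were counted in the 57 summit windows. The nuclear receptor half-site AGGTCA was in 0 of the 57 windows, and in 2.00% of all 4699, and its FTZ-F1 form CAAGGTCA was in 0 and in 0.128%. GAGAG was in 10 (17.5%) against 10.6% of all windows, and a run of AAAAAA, a motif added after the windows had been seen, in 24 (42.1%) against 34.2%. CGATA was in 6 (10.5%) against 13.5%, CAGCTG in 3 (5.26%) against 3.85%, CAGGTA in 2 (3.51%) against 1.81% and CCGGAA in 1 (1.75%) against 1.98%. TATCGATA and CACGTG were in 0, against 1.21% and 0.766%. The 10 GAGAG windows were at Hr4, Eip75B, ftz-f1 and E23. The median GC content of the windows was 37.6%, where it was 33.7% for the whole list, and 500 bp to the right it was 46.5% and 43.6%. The windows of the 10 genes thus also had a lower median GC content than the sequence beside them.

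The genes with the most similar counts were looked up among the 200 of like length for the 3 highest percentiles, by the Euclidean distance of the counts in the joint list, replicate 1 and replicate 2. For Hr4 the nearest was sbb, with 19, 11 and 11 sites (distance 3), followed by CG42594 with 15, 4 and 6 and shn with 8, 8 and 7. For ftz-f1 it was Smr, with 8, 5 and 8 (distance 1), followed by mew and pigs. For E23 they were CG14441, mbc and lbk, with 4 joint-list sites each. Smr encodes a corepressor that binds the unliganded ecdysone receptor.

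Other genes around the hormone were counted from 6 further lists. In the joint list, 17.1% of all protein-coding genes had a promoter summit, 45.3% a site at the locus and 3.27% an unadjusted p under 0.05. Those shares stand beside the counts of each list below. Of 15 other nuclear receptor genes, 4 had a promoter summit in the joint list and in each own list, the xenobiotic receptor gene Hr96 (signal 367), the metabolic regulator ERR (303), Hnf4 (150) and eg (102). At their loci 8 of 15 had a site, with 11 sites where like-length genes had 17.7 and a median percentile of 50, and none had an unadjusted p under 0.05. Their summed count was thus below that of genes of their length. Of the 3 receptor genes that are also on the response list, Hr38 had 2 joint-list sites and Eip78C and Hr39 had 0, while Eip78C had 1 in replicate 2 and 2 in the other joint list.

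Receptor cofactors had 6 promoter summits among 15 genes, at brm (signal 1029, rank 47), which encodes the ATPase of a chromatin remodelling complex, alien (343), Nup98-96 (254), the chaperone gene Hsp83 (236), Mi-2 (128) and trr (96.6). Their loci held 32 sites against 18.9 in like-length genes, with a median percentile of 70. In this list Nup98-96, with 4 sites, had an unadjusted one-sided negative binomial p of 0.0207. Of 25 other ecdysone response genes 8 had a promoter summit, led by Xbp1 (325), Ldh (303) and the cell death gene hid (302), and followed by Eip63F-1 (197), vri (190), woc (150), Drice (80.1) and ken (59.3). They had 44 sites against 33 in like-length genes, a median percentile of 66, and 1 gene, ken, with an unadjusted p under 0.05 (0.0247, negative binomial, one-sided). The promoter peaks of Drice and ken were in neither own list.

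Genes that make, move or break down the hormone had few sites. Of 15 found by name 1, sad, which encodes a hydroxylase of ecdysone synthesis, had a promoter summit, of signal 72.3 and in neither own list. Their loci held 8 sites against 16 in like-length genes, with a median percentile of 26, and sad was again the gene with an unadjusted p under 0.05 (0.0387, negative binomial, one-sided). Of 8 juvenile hormone genes 1, Jheh1 (87.7), had a promoter summit, with 9 sites against 6.52 in all. None of 30 larval and prepupal effector genes, such as those for glue and storage proteins, had a promoter summit in any of the lists, and their loci held 10 sites against 16.1, with a median percentile of 37.5. Most genes of the synthesis and effector lists had no site, and such genes share a low tied percentile. ImpE3 alone among them had an unadjusted p under 0.05 (0.0297, negative binomial, one-sided). In the other joint list and in each own list, neither this list nor that of hormone synthesis had a gene with an unadjusted p under 0.05. No gene of these 6 lists passed after adjustment, and whether the 10 genes differ from them was not tested. Eip78C, Hr38 and Hr39 stand in the receptor list and the response list, and Kr-h1 in the juvenile hormone list and the response list.

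**Figure D5:**
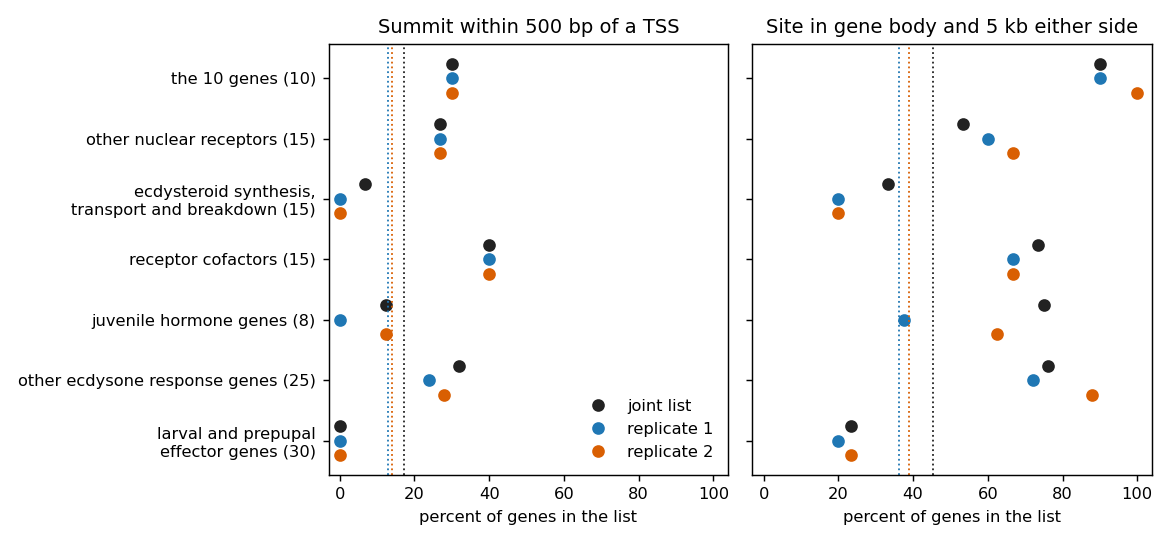
Percent of genes with a summit within 500 bp of a start site (left) and with a site in the gene body and 5 kb either side (right), for the 10 genes and 6 related lists (number of genes in brackets), in the joint list (black), replicate 1 (blue) and replicate 2 (orange). Dotted lines give the share of all protein-coding genes in the same list, 17.1%, 12.9% and 14.1% on the left and 45.3%, 36.1% and 38.9% on the right.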

How the data were processed

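Peaks of CG32772-eGFP ChIP-seq from 2 libraries of 1 group were analysed. Per the labels, chromatin of embryos was sonicated to 200 to 800 bp and assembly dm6 was used. The aligner is not given in the sources used here, nor is the peak caller. Each deposited list gives a score per peak (at least 830 in the thresholded lists), a signal whose scaling the authors do not state, and the offset of the summit from the peak start, which was added to the start. The score was not tested. Of 4746 peaks in the main list, 47 outside the arms were left out. No per-sample column of another series was found (0).

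Genes and start sites came from Ensembl release 115 on BDGP6.54, without transposable elements, and sequence from the RefSeq copy of the assembly. A locus was the gene with 5 kb either side. Like-length genes were the 200 nearest in length. A percentile was the share of them with fewer sites per kb with ties counted at 0.5. Overlap with an own list needed 1 bp. Loci of neighbouring genes overlap, so a site can count for several genes. Counts were tested with scipy 1.17.1 and numpy 2.4.6 in Python 3.11.15, the fit was tested on simulated data, and figures were drawn with matplotlib 3.10.9. P-values measure spread between genes, not between embryos.

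The members, the lists and the motifs were chosen with earlier results of these data known. Named are the members and their sites, members of the 6 lists with a promoter summit or an unadjusted p under 0.05, the nearest genes by counts for 3 members, and genes whose start lies nearest to a site. CG1677, kirre, CG6927, CG46321, Idh3b, Eip78C, Hr38, Hr39, Kr-h1, lncRNA:CR45393 and tRNA:Asn-GTT-1-1, and list members with only an unadjusted p, were named after their values were seen. So were CG3587 and hfw. The list symbols phm and torso did not match a protein-coding gene name. The alternatives were the other joint list, each own list, subsets of the joint list, other promoter widths, flanks and sets of like-length genes, and a Poisson model.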

Additional observations from a re-analysis of the deposited data

How the results depend on the processing

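The 3 genes with a promoter summit remained 3 in each alternative list, and were 2 within 200 bp and 3 within 1000 bp. Genes with a site numbered 9 or 10 throughout. None passed the adjusted test under any alternative but the Poisson model, where 1 did. The negative binomial test had called no raised long gene on simulated counts, but many were raised there at once. How well it finds single high genes was not tested. This outcome therefore does not show that the counts of the 10 genes were like those of other genes. The total of 57 sites was 32 without replicate 2 and 44 without replicate 1, 28 in the upper 50% by signal, 34 where both own lists had to hold the peak and 33 where the overlap had to reach 0.5 of the shorter peak. Sites per kb were then 0.0468, 0.0643, 0.0409, 0.0497 and 0.0482 in the same order. Fewer peaks were counted in each of these lists, and against like-length genes in the same list the ratio stayed between 2.27 and 3.17. Unadjusted calls among the 10 genes ranged from 1 without replicate 2, where 367 of 13968 genes had one, to 6 with a flank of 2 kb. The share of all genes was not counted for that flank. Across the alternatives Hr4 was at the 100th percentile each time, ftz-f1 between 94 and 99.5, E23 between 93.5 and 100, Hr3 between 78.5 and 97, Eip75B between 79 and 98, usp between 71.5 and 100, Eip74EF between 47 and 79.5, br between 31 and 69.5, EcR between 26.5 and 61.5, and Eip93F between 11.2 and 43.5. Of 100 alternative site counts of single genes, 67 were within 1.5 times the value given, and of 130 alternative percentiles, 78 moved by less than the spread between the own lists.

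No paired analysis was possible because the libraries form 1 group. Without read counts the depth behind a peak is unknown. With 2 libraries, no spread beyond their difference can be given.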
